A study of Homo sapiens with 4 samples.

Results

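The genes described here are 10 genes of the contractile actin apparatus and of the transcription factor that drives it. They are the smooth muscle actins ACTA2 and ACTG2, the actin-binding proteins TAGLN, CNN1 and CALD1, the myosin light chain MYL9, the tropomyosins TPM1 and TPM2, the factor SRF and its cofactor MRTFA. They were taken by name, and all 10 were found among the 58735 genes of the count table. Mebendazole (MBZ) is an anthelmintic that binds tubulin. The experiment asked what it does to gene expression in triple-negative breast cancer (TNBC), in MDA-MB-231 and SUM159, a pair of established human TNBC lines, each kept for 72 h with 1 μM MBZ or with the vehicle DMSO. Every condition has 1 library of mRNA, so all comparisons are between single libraries, and differences between cultures of 1 condition were not measured.

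Serum response factor (SRF) binds a short DNA element, the CArG box, in the promoters of actin and of many actin-binding proteins. Its cofactor MRTFA is held in the cytoplasm by monomeric actin and enters the nucleus when actin is drawn into filaments. Ternary complex factors such as ELK1 compete with it for SRF and direct SRF to immediate-early genes instead. The resulting contractile genes are known from smooth muscle, myofibroblasts and myoepithelial cells, and carcinoma cells of mesenchymal type use several of them for migration.

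Libraries held between 17143139 and 24897586 counts. Levels are given as CPM (counts relative to library size, with edgeR's TMM factors within a line), and a count of 0 allows a level of up to 0.12 to 0.175 CPM, before TMM factors. Changes are log2 fold changes of MBZ over DMSO, each with its 95% counting interval (Clopper-Pearson), which covers counting error only. CPM were scaled for each line apart, so levels set across the lines rest on that scaling. Scaling by total counts instead would raise the median change over all genes by 0.27 in MDA-MB-231 and 0.30 in SUM159. Falls smaller than that change sign with total counts, while rises keep theirs. The place of a gene relative to the median of all genes stays the same. Known markers of the lines were looked at. VIM had between 20703 and 54409 counts in all 4 libraries, PGR had 0, ESR1 between 0 and 18, and CDKN2A, which MDA-MB-231 cells lack, had 0 counts in both MDA-MB-231 libraries and 10 and 4 in those of SUM159. ERBB2, with 1216 to 1996 counts, was not at 0. EPCAM had 144 and 190 counts in MDA-MB-231 and 6 and 9 in SUM159, and CDH1 had 11 and 12, and 0 and 0. VIM, PGR, ESR1 and ERBB2 were expected to be alike in both lines. Of these and CDKN2A, only CDKN2A bears on which line is which, and it rests on few reads. Median levels of 25 G2/M genes went from 171.4 to 94.5 CPM with MBZ in MDA-MB-231 and from 15.55 to 66.6 CPM in SUM159, so that the SUM159 library with DMSO had the lowest. Of the 25, 21 were at least 1.5-fold lower in MDA-MB-231, against 15.8% of all genes, and all 25 at least 1.5-fold higher in SUM159, against 21.5%. Their part in the changes below was not tested.

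ACTA2 and MYL9 were lower after MBZ in both lines, by more than counting error and under every scaling run. ACTA2 was 3.28-fold lower in MDA-MB-231 and 5.53-fold lower in SUM159, and MYL9 was 2.26-fold and 3.20-fold lower. CALD1, TAGLN and TPM1 were at least 1.5-fold lower in SUM159 but not in MDA-MB-231, whereas SRF was slightly lower in MDA-MB-231 and slightly higher in SUM159. TPM2 and MRTFA changed by less than 1.5-fold in either line. CNN1 and ACTG2 were near the limit of detection. The plot of levels by library places the 10 genes.

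**Figure D1:**
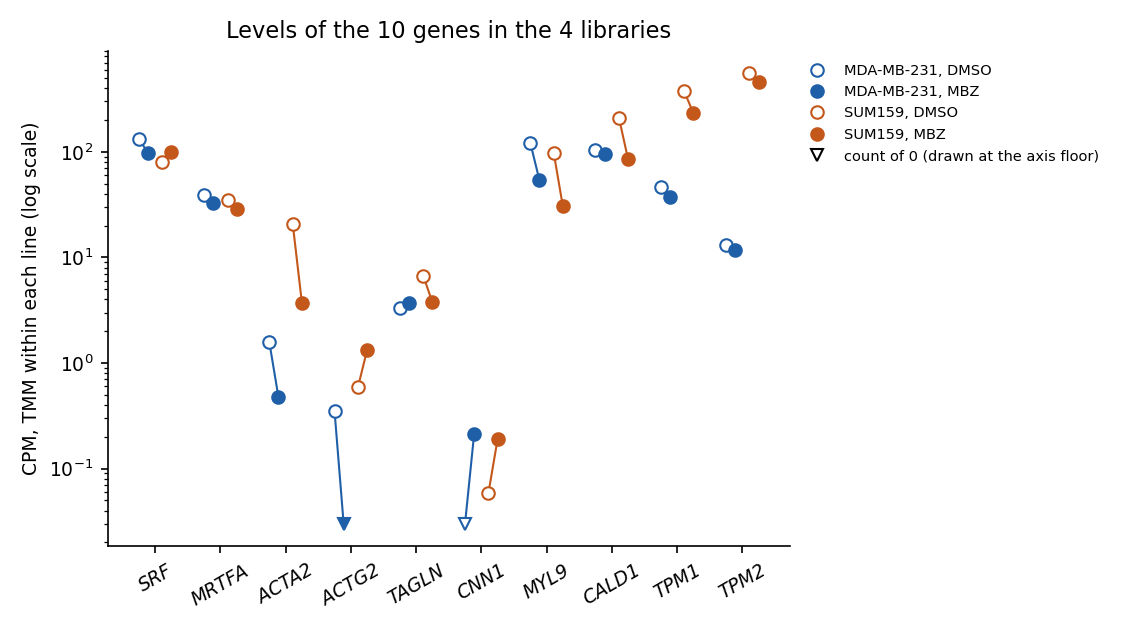
Level of each gene in CPM (log axis) in the 4 libraries, with DMSO as open and MBZ as filled circles, blue for MDA-MB-231 and orange for SUM159, and a triangle at the axis floor for a count of 0. The lines between circles join the libraries of 1 cell line, and there are no error bars because each condition has 1 library. ACTA2 drops from 20.6 to 3.72 CPM in SUM159 and from 1.59 to 0.479 CPM in MDA-MB-231.

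In MDA-MB-231, 8 members averaged at least 10 counts. Of these, 2 were at least 1.5-fold lower, against 15.8% of all 15142 genes compared, and 0 were at least 1.5-fold higher, against 18.3%. In SUM159, 5 of 9 members were lower, against 21.7% of 15674 genes, and 1 was higher, against 21.5%. With scaling by total counts, 3 were lower and 2 higher in SUM159. For the members, the median log2 fold change stood at -0.27 in MDA-MB-231 and -0.69 in SUM159, while over all genes the medians were -0.018 and -0.034. Of the 8 members compared in both lines, 2 were at least 1.5-fold lower in both, ACTA2 and MYL9, against 4.71% of 13733 genes. The filter on the mean left out CNN1 in both lines and ACTG2 in MDA-MB-231, and these counts describe the members that passed and have no test.

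With the lines standing in for replicates, a change common to both could be tested, with 1 residual degree of freedom. Of 16100 genes entered into edgeR's quasi-likelihood test, 9 were members, and 0 of these had an adjusted p under 0.05, against 0.00621% of all genes. Before adjustment, 2 members had a p under 0.05 for a shared fall, ACTA2 and MYL9, against 3.24% of all genes. DESeq2's Wald test called 1 member lower, MYL9, against 0.369% of 14920 genes. The shared log2 fold change of MYL9 was -1.39 (standard error 0.30, Benjamini-Hochberg adjusted p = 0.441 in edgeR), and its adjusted p ranged from 0.0103 to 0.9999 over the 4 alternatives run. ACTA2 had -2.12 (standard error 0.54, adjusted p = 0.55 in edgeR), with a range from 0.0138 to 0.9999. The adjusted p-values of the other 7 members lay between 0.743 and 0.990 in edgeR's test.

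**Figure D2:**
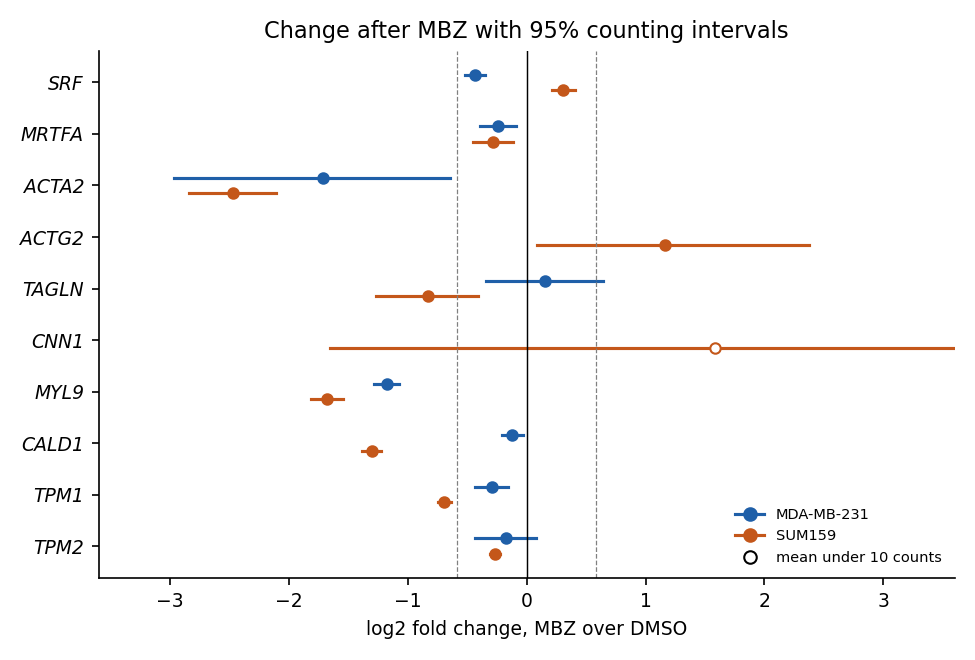
log2 fold change of MBZ over DMSO for each gene in MDA-MB-231 (blue) and SUM159 (orange), with 95% Clopper-Pearson counting intervals as bars, cut at the axis limits. Dashed lines mark 1.5-fold, open circles a mean under 10 counts, and a gene with a library at 0 has no point. Intervals of ACTA2 and MYL9 lie left of 0 in both lines, and those of SRF lie on opposite sides.

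SRF (ENSG00000112658), the factor itself, spans 43171269 to 43181506 of chromosome 6 (GRCh38, plus strand) and has 7 exons in its canonical transcript. In MDA-MB-231 the DMSO library held 3012 reads of it and the MBZ library 1844, and in SUM159 they held 1357 and 2092. The SUM159 library with DMSO was the lowest of the 4, at 80.5 CPM, and the others held 98.1 to 132.7 CPM. SRF changed by -0.44 (interval -0.52 to -0.35) on the log2 scale in MDA-MB-231 and by 0.31 (interval 0.21 to 0.41) in SUM159, so the intervals lie on opposite sides of 0. Neither change reached 1.5-fold, but with scaling by total counts the SUM159 value was 0.61, just past it. SRF is known to act on its own promoter. The 250 bases before the upstream of its 2 RefSeq starts (GRCh38.p14, chr6:43171019-43171268, plus strand) are shown because they hold 2 exact CArG boxes, in capitals, at -30 to -21 and -10 to -1 from that start. The window of the other start held no match.

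SRF: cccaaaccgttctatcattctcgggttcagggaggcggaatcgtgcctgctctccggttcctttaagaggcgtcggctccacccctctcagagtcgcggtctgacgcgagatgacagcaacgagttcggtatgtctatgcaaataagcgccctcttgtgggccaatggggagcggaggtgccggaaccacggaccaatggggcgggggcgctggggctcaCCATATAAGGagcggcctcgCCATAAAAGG

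The CArG box was searched as CC, then 6 bases that are each A or T, then GG, which reads the same on both strands. It was searched in windows from 250 bases before to 50 after each RefSeq start. An exact match was found in 1.29% of 35116 such windows, and a match with at most 1 C or G among the 6 bases in 8.13%. Counted by gene, since a gene can have several windows, the shares were 1.6% and 9.88% of 27305. Windows were given for 8 of the 10 members, all but TAGLN and MYL9. Exact matches were found for 2 of these 8, SRF and ACTG2, and matches with 1 departure for ACTA2 and CALD1. The CALD1 match lies in 1 of its 4 windows, from 134711249 to 134711548, upstream of the span of the gene in GENCODE. A match is a description of the letters, not of binding.

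MRTFA (ENSG00000196588, chromosome 22 from 40410281 to 40636719, minus strand), the actin-regulated cofactor, had 879 and 617 counts in MDA-MB-231 and 592 and 605 in SUM159. Its levels lay between 28.8 and 38.7 CPM. Its log2 fold changes of -0.24 and -0.28 had intervals below 0 (-0.39 to -0.088 and -0.45 to -0.12). With scaling by total counts they were 0.028 and 0.016, where the medians of all genes were 0.25 and 0.27, so MRTFA was below the median of all genes under both scalings. None of the 3 MRTFA windows held a CArG box with up to 1 departure.

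ACTA2 (ENSG00000107796) encodes smooth muscle α-actin, the usual marker of smooth muscle cells and myofibroblasts. The gene spans 88935074 to 88991339 of chromosome 10 (minus strand), and its canonical transcript has 9 exons. Its reads went from 36 to 9 in MDA-MB-231 and from 347 to 78 in SUM159. Both MBZ libraries were below the DMSO library of their own line, and the lines differed more than the treatments, since SUM159 cells with MBZ still held more ACTA2 than MDA-MB-231 cells with DMSO. In MDA-MB-231, where only 9 reads remained, the log2 fold change was -1.72 (interval -2.97 to -0.65), and in SUM159 it was -2.47 (interval -2.84 to -2.11). In the order of all genes from the lowest change, ACTA2 was at rank 131 of 15142 in MDA-MB-231 and 217 of 15674 in SUM159. Among the 4169 genes lower in both lines it was at rank 21 by the smaller of its falls, that of MDA-MB-231. Both this rank and the rank in MDA-MB-231 rest on 36 and 9 reads and are as uncertain as the interval there. In GENCODE release 44, 38.3% of its canonical transcript overlaps exons on the opposite strand. The partners are ACTA2-AS1, with 14, 5, 0 and 1 counts in the same order of libraries, and FAS, with 48, 80, 302 and 333. The sources used here do not state whether the counting used strand, and reads in those stretches may have been left out.

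The bases before the downstream of the 2 RefSeq starts of ACTA2 (GRCh38.p14, chr10:88952774-88953023, minus strand, printed 5′ to 3′ in the direction of the gene) and before the start of ACTG2 (chr2:73892758-73893007, plus strand) are shown to compare their CArG boxes, in capitals. Those of ACTA2, at -121 to -112 and -71 to -62, each hold 1 base that departs from the motif. Those of ACTG2, at -110 to -101 and -73 to -64, are exact.

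ACTA2: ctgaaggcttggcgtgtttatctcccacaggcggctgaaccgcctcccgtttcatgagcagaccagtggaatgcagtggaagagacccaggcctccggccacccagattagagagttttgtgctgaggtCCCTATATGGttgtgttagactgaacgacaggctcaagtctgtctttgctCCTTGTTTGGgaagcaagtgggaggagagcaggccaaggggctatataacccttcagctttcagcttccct

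ACTG2: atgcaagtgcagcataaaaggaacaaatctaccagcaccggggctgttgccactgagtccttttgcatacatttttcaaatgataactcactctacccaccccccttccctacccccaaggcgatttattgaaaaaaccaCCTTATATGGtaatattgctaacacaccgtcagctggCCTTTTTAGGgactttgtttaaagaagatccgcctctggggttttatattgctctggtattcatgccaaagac

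ACTG2 (ENSG00000163017, chromosome 2 from 73892314 to 73919865, plus strand) is the γ-actin of enteric smooth muscle. Its DMSO and MBZ libraries held 8 and 0 reads in MDA-MB-231, and 10 and 28 in SUM159. Taking 3 counts per library as the floor, it was at least 2.21-fold lower in MDA-MB-231, a bound that leaves out the counting error of the 8 DMSO reads. The counting interval of its log2 fold change there reached up to -0.50, and its log2 fold change in SUM159 was 1.16 (interval 0.084 to 2.38). With 0 to 28 reads per library, it was barely detected in either line. No window of 150 bases of its canonical transcript, or of that of ACTA2, occurs word for word in a transcript of another gene.

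The cytoplasmic actins ACTB and ACTG1, which build the general actin cytoskeleton, give a measure of ACTA2 that needs no scaling between libraries. In SUM159, ACTA2 had 4.74 reads per 1000 ACTB reads with DMSO (interval 4.26 to 5.27) and 0.833 with MBZ (interval 0.658 to 1.04), a log2 change of -2.51. In MDA-MB-231 it had 0.197 (interval 0.138 to 0.273) and 0.138 (interval 0.0632 to 0.262), and these intervals overlap. The lower ACTA2 count of MDA-MB-231 thus came with a lower ACTB count, and their ratio could not be told apart from an unchanged one at this depth. In MDA-MB-231, ACTB had 182585 reads with DMSO and 65114 after MBZ, and in SUM159 it had 73145 and 93641, log2 fold changes of -1.22 and 0.040. ACTG1 had -1.19 and -0.38.

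**Figure D3:**
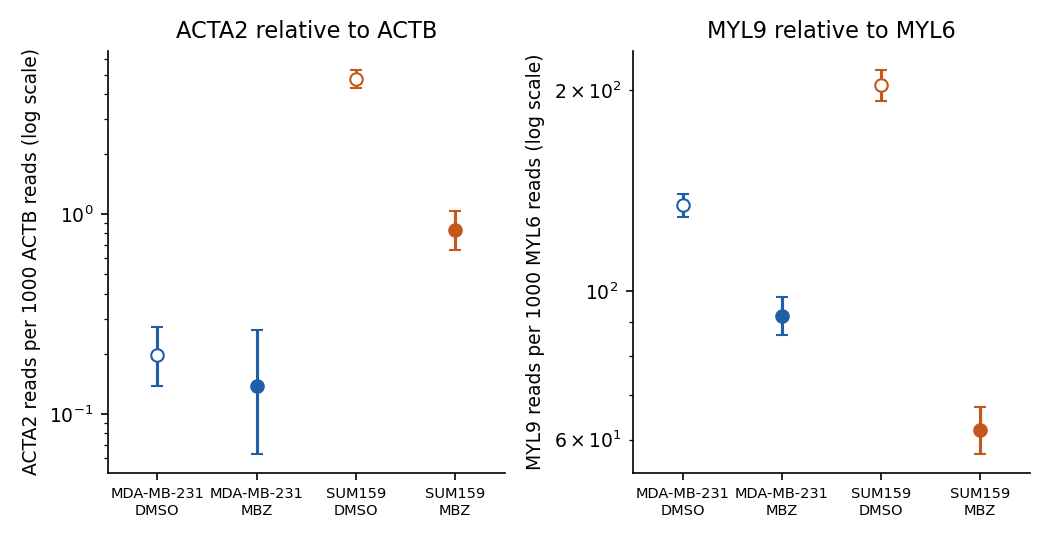
Reads of ACTA2 per 1000 reads of ACTB (left) and of MYL9 per 1000 reads of MYL6 (right) in each library, on log axes, with 95% Clopper-Pearson counting intervals as bars. Open circles are DMSO, filled circles MBZ. The intervals of ACTA2 overlap in MDA-MB-231 and are far apart in SUM159, while those of MYL9 are apart in both lines.

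MYL9 (ENSG00000101335, chromosome 20 from 36541497 to 36551447, plus strand) encodes a regulatory light chain of myosin II, whose phosphorylation switches contraction on. Its counts went from 2774 to 1017 in MDA-MB-231 and from 1643 to 639 in SUM159. Its level with DMSO was 122.2 CPM in MDA-MB-231 and 97.5 CPM in SUM159, and with MBZ it was lower in both, at 54.1 and 30.45 CPM. On the log2 scale these are changes of -1.18 (interval -1.28 to -1.07) and -1.68 (interval -1.81 to -1.55). It was at rank 89 of the 4169 genes lower in both lines. Per 1000 reads of MYL6, the essential light chain of the same myosin, MYL9 went from 134.5 (interval 129.2 to 139.9) to 91.9 (interval 86.1 to 98.0) in MDA-MB-231 and from 203.4 (interval 192.8 to 214.5) to 62.0 (interval 57.2 to 67.2) in SUM159. MYL9 was thus lower also relative to another chain of its motor, in both lines. No exon of MYL9 overlaps that of another annotated gene.

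CALD1 (ENSG00000122786, chromosome 7 from 134744252 to 134970729, plus strand) encodes caldesmon, which binds actin and tropomyosin and restrains myosin. Its reads went from 2376 to 1807 in MDA-MB-231 and from 3524 to 1778 in SUM159. The level of SUM159 cells with DMSO, 209.1 CPM, stood above the other libraries, which held 84.7 to 104.6 CPM. The log2 fold change in SUM159 was -1.30 (interval -1.39 to -1.22). In MDA-MB-231 it was -0.12 (interval -0.21 to -0.034) and 0.14 with scaling by total counts, where the median of all genes was 0.25. The difference between the lines was not tested, since there is no replicate in either.

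TAGLN (ENSG00000149591, chromosome 11 from 117199370 to 117207464, plus strand) encodes transgelin, an actin crosslinker and classic SRF target. It had 75 and 69 counts in MDA-MB-231 and 113 and 79 in SUM159, so that only SUM159 cells with DMSO stood apart, at 6.71 CPM against 3.30 to 3.77 CPM in the others. In MDA-MB-231 no change was detectable at this depth, where the log2 value was 0.15 (interval -0.34 to 0.64), and in SUM159 it was -0.83 (interval -1.27 to -0.41), or -0.53 and under 1.5-fold with scaling by total counts. Most of its canonical transcript, 82.6%, overlaps exons of PCSK7 on the opposite strand or of a gene known by its identifier alone, ENSG00000280143, on the same strand. The same-strand overlap alone is 66.0%. In union mode reads in the same-strand stretch are ambiguous, and those over PCSK7 are so only if strand was not used, which is not stated, so these counts may hold only part of the TAGLN reads. ENSG00000280143 itself had 0 to 7 counts.

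CNN1 (ENSG00000130176, chromosome 19 from 11538767 to 11550323, plus strand), the calponin of differentiated smooth muscle, had 0 and 4 counts in MDA-MB-231 and 1 and 4 in SUM159. In SUM159 the ratio of MBZ to DMSO was 2.99 with a log2 interval from -1.65 to 7.31, which holds changes in either direction. No overlap with another gene was annotated. Both lines thus lacked a readable CNN1 signal, and no change can be stated.

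Tropomyosins lie along the actin filament and set which myosins and severing proteins may bind it. TPM1 (ENSG00000140416, chromosome 15 from 63042620 to 63071915, plus strand) had 1043 and 704 counts in MDA-MB-231 and 6321 and 4866 in SUM159. Its level was higher in both SUM159 libraries, at 375.1 and 231.9 CPM, than in both MDA-MB-231 libraries, at 45.9 and 37.45 CPM. Its change in MDA-MB-231 was -0.29 on the log2 scale (interval -0.43 to -0.16), and -0.029 with scaling by total counts. In SUM159 it was -0.69 (interval -0.75 to -0.64), or -0.39 and under 1.5-fold with that scaling.

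TPM2 (ENSG00000198467, chromosome 9 from 35681992 to 35690056, minus strand) had 299 and 219 counts in MDA-MB-231 and 9338 and 9652 in SUM159. The lines differed far more in TPM2 than the treatments did. On the log2 scale TPM2 stood at -0.18 in MDA-MB-231 (interval -0.43 to 0.080) and at -0.27 in SUM159 (interval -0.31 to -0.23), and with scaling by total counts these were 0.089 and 0.033, below the medians of all genes of 0.25 and 0.27. Counted per kilobase of annotated exon, TPM2 made up 56.2% of the 4 tropomyosin genes TPM1 to TPM4 in SUM159 with DMSO and 51.9% with MBZ, against 2.77% and 3.92% in MDA-MB-231. There TPM3 and TPM4 held 42.6% and 52.5% with DMSO. The exon length counts every annotated exon, which lowers the share of genes with many alternative exons such as TPM1.

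With DMSO alone, 5 of the 8 members compared were at least 2-fold higher in SUM159 than in MDA-MB-231, against 22.2% of 15559 genes, and 0 were at least 2-fold lower, against 20.9%. These levels were scaled by TMM over the 4 libraries. The 5 were TPM2 at 43.8-fold, ACTA2 at 13.5-fold, TPM1 at 8.50-fold, TAGLN at 2.11-fold and CALD1 at 2.08-fold. MYL9 was 1.20-fold and SRF 1.58-fold lower in SUM159, and MRTFA, with a log2 difference of -0.082 (interval -0.23 to 0.070), was not distinguishable. ACTA2, TPM1, TAGLN and CALD1 are also 4 of the 5 members that were at least 1.5-fold lower after MBZ in SUM159. The SUM159 library with DMSO enters both of these comparisons, so they are not independent.

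The 8 genes of the smooth muscle lineage list ranged from 0 to 4089 counts per library. MYOCD, the SRF cofactor that defines smooth muscle, had 0 counts in every library, and DES had 0 to 9. MYH11, the smooth muscle myosin heavy chain, had 60 and 31 counts in MDA-MB-231 and 24 and 74 in SUM159, or -0.68 on the log2 scale (interval -1.36 to -0.032) in the former and 1.30 in the latter (interval 0.63 to 2.04). SYNPO2, an actin-binding protein of muscle, had 11 and 21, and 170 and 69, with 1.20 and -1.61. LMOD1, which nucleates actin in smooth muscle, had 2 and 3 counts in MDA-MB-231 and went from 106 to 31 in SUM159, a log2 fold change of -2.09. MYLK, the kinase that phosphorylates MYL9, had 1845 and 1163 counts in MDA-MB-231 and 4089 and 1420 in SUM159, log2 fold changes of -0.39 and -1.84. SMTN, encoding the actin-binding smoothelin, had 2808 and 1376 counts in MDA-MB-231 and 369 and 1986 in SUM159, log2 fold changes of -0.76 and 2.11. SYNM, encoding the intermediate filament protein synemin, had 1135 and 690, and 333 and 200, with -0.45 and -1.05. Over the list, 2 of 5 compared were at least 1.5-fold lower and 1 higher in MDA-MB-231, and 4 of 6 lower and 2 higher in SUM159, with median log2 fold changes of -0.45 and -1.33. Of the 5 compared in both lines, 0 were lower in both and 3 changed at least 1.5-fold in opposite directions, MYH11, SYNPO2 and SMTN, against 6.04% of 13733 genes. Total counts raise the changes in MDA-MB-231 by 0.27, and MYH11 and SMTN would then not reach 1.5-fold there. The share of all genes was not computed with that scaling. Here and in the lists that follow, the shares of all genes are the 15.8% lower and 18.3% higher in MDA-MB-231 and the 21.7% and 21.5% in SUM159 given above. In edgeR's quasi-likelihood test 0 of the 6 tested had an adjusted p under 0.05, 1 had an unadjusted p under 0.05, for a shared fall, and DESeq2 called 0.

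Markers of myoepithelial cells, which also carry ACTA2 and MYL9, were measured beside these genes. TP63, the p63 factor of basal cells, went from 2131 to 385 counts in SUM159, a log2 fold change of -2.78, and from 123 to 67 in MDA-MB-231. The summed level of the 5 markers went from 142.8 to 29.5 CPM in SUM159 and from 7.75 to 14.8 CPM in MDA-MB-231. TP63 alone made up 126.4 and 18.35 CPM of the SUM159 sums, while KRT14 was higher there, with a log2 fold change of 1.56. The basal keratins KRT5 and KRT14, named after their values were seen, had 0 to 48 counts in any library. Of the 5, 3 were at least 1.5-fold lower and 1 higher in SUM159, where 2 of the 3 had an interval below 0 and that of KRT5, on 13 and 8 reads, held 0, and 1 of the 4 compared was lower and 3 were higher in MDA-MB-231. In edgeR's quasi-likelihood test 0 of the 4 tested passed after adjustment, 1 had an unadjusted p under 0.05 for a shared rise and 1 for a shared fall, and DESeq2 called 0. Their part in the ACTA2 and MYL9 values was not tested, and fewer cells of a type cannot be told apart from less RNA per cell.

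Genes of the wider actin cytoskeleton were compared by lists, plotted by gene for each line. In MDA-MB-231 the medians were below the -0.018 of all genes for actin, myosin and adhesion genes alike, while in SUM159 they were closer to 0. Of 5 other tropomyosins, calponins and transgelins compared, 4 were at least 1.5-fold lower in MDA-MB-231, with a median of -0.71, and 1 in SUM159, with a median of -0.24. CNN2, a calponin outside muscle, was lower in both, with log2 fold changes of -0.74 and -1.40. Of 5 myosin II chains, 3 were lower in MDA-MB-231 and 0 in SUM159, with medians of -0.63 and 0.035. For these 2 lists, in edgeR's quasi-likelihood test, 0 genes of the 10 tested passed after adjustment, 1 had an unadjusted p under 0.05, CNN2, and DESeq2 called 0.

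Among 21 adhesion and crosslinking genes reported as SRF targets, 10 were at least 1.5-fold lower and 1 higher in MDA-MB-231, and 4 lower and 3 higher in SUM159, where these are below the shares of all genes. The medians were -0.53 and -0.035. The 3 lower in both lines, against 4.71% of all genes, were ZYX, FHL1 and TGFB1I1. ZYX, with -0.66 and -0.61, was close to the threshold. Total counts raise the changes by 0.27 and 0.30, and ZYX would then not reach 1.5-fold in either line. FHL1, a LIM-domain protein of muscle, had 874 and 293 counts in MDA-MB-231 and 58 and 27 in SUM159, log2 fold changes of -1.30 and -1.42. TGFB1I1 encodes a focal adhesion protein, and its 1756 and 694 counts in MDA-MB-231 and 3100 and 1263 in SUM159 gave log2 fold changes of -1.07 and -1.61. Its adjusted p was 0.471 in edgeR's quasi-likelihood test and 0.0536 in DESeq2, and ranged from 0.0228 to 0.9999 over the alternatives. The crosslinker ACTN4 and the severing factor CFL1 had -1.02 and -1.04 in MDA-MB-231, and 0.20 and 0.084 in SUM159. In edgeR's quasi-likelihood test 0 of the 21 passed after adjustment, 2 had an unadjusted p under 0.05, both lower, and DESeq2 called 0.

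**Figure D4:**
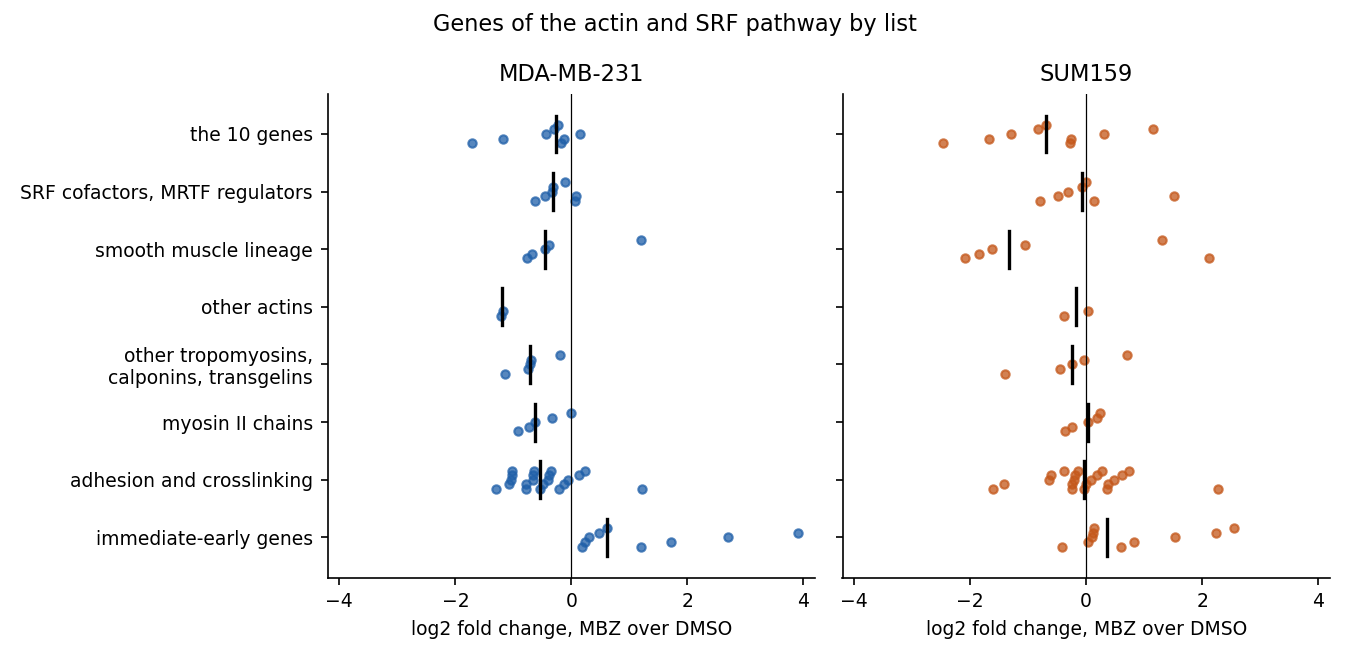
log2 fold changes of MBZ over DMSO for each gene of 8 lists with a mean of at least 10 counts in the line, MDA-MB-231 on the left and SUM159 on the right. Each point is 1 gene and the black bar is the list's median, with no error bars because each condition has 1 library. The immediate-early genes are the list whose median is above 0 in both lines, 0.62 and 0.37.

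SRF's other targets, the immediate-early genes that respond through ternary complex factors, had medians above 0 in both lines. Of the 9 compared in MDA-MB-231, 5 were at least 1.5-fold higher and 0 lower, and of the 10 in SUM159, 5 were higher and 0 lower, with medians of 0.62 and 0.37. The counts per line are not of the same genes throughout, since 2 of the 9 compared in both lines were at least 1.5-fold higher in both, against 6.12% of all genes, and EGR3 had -0.42 in SUM159 (interval -1.09 to 0.24). FOSB, a partner of JUN proteins, had 31 and 388 counts in MDA-MB-231 and 27 and 197 in SUM159, log2 fold changes of 3.91 and 2.55. NR4A1, an orphan nuclear receptor, had 2.69 and 1.53. In edgeR's quasi-likelihood test 0 of the 10 passed after adjustment, 2 had an unadjusted p under 0.05, FOSB and NR4A1, both higher, and DESeq2 called 1, FOSB, with an adjusted p of 0.00115. Over the 4 alternatives the adjusted p of FOSB ranged from 6.47e-07 to 0.9999.

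Cofactors of SRF and regulators of MRTF formed the last list. MRTFB, the partner of MRTFA, had 596 and 360 counts in MDA-MB-231 and 644 and 464 in SUM159, log2 fold changes of -0.45 and -0.79. ELK1 had -0.63 and 0.0047, and ELK3 and ELK4 stayed within 1.5-fold in both lines. Over the list, 1 of 7 genes compared was at least 1.5-fold lower in each line and 0 and 1 were higher, with medians of -0.32 and -0.070. These shares were no larger than those of all genes. In edgeR's quasi-likelihood test 0 of the 7 had an adjusted p under 0.05, 0 had an unadjusted p under 0.05, and DESeq2 called 0.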

How the data were processed

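mRNA was sequenced from both lines after 72 h with 1 μM MBZ or with DMSO, 1 library per condition, and samples were grouped by their line and dose labels. The authors deposited raw counts per gene, made with HTSeq 0.6.1 (union mode) after STAR 2.5 had aligned the reads to GRCh38. Versions are from the submitters' processing notes. Annotation release and strand setting are not given in the sources used here. No row lacked a gene, and every per-sample column was used. Symbols matched 58207 of 58735 identifiers. Positions and overlaps are from GENCODE release 44 on GRCh38, promoter sequences from RefSeq on GRCh38.p14.

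For fold changes, edgeR 4.0.16 under R 4.3.3 was used (TMM within a line, prior count 0.125), genes averaging at least 10 counts were compared, and calls were made at 1.5-fold. For shared changes, edgeR's quasi-likelihood test (cell line and treatment, filterByExpr, TMM over 4 libraries, Benjamini-Hochberg, common BCV 0.323) and DESeq2 1.42.0 were run. The lines served as replicates, so p-values measure the difference in response between lines, not between cultures. Intervals and floors (3 counts per library) cover counting error only, since amplified reads carry no molecular identifier. The functions were tested on simulated data.

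All members are named. In other lists, the 3 highest by level and the 3 with the largest change (at 100 counts or more on average) may be named, with ARHGEF2, TGFB1I1 and the line and lineage markers in any case. ZYX was named after its values were seen, to complete a count, and ACTC1, EGR3, KRT5 and KRT14 likewise. The values of 1 further list are not reported here. The members and lists were chosen with earlier results of these data known. Alternatives were total counts, DESeq2 size factors, TMM over 4 libraries, a prior count of 2, a fold of 2, a mean of at least 100 or any count, and for the shared test DESeq2, RLE, all genes with any count, and a model that leaves out cell line.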

Additional observations from a re-analysis of the deposited data

Results flagged for a closer look

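Each of the following genes differed in direction between the lines, with counting intervals on opposite sides of 0 (for ACTG2 in MDA-MB-231, a bound in place of an interval). With 1 library per condition, none of these differences was tested. The genes listed are 14 of the 59 screened for this, with 2 of the 10 members among them. The share of all genes that meet the same rule was not computed. Intervals are narrow for genes with many reads, so small changes also meet the rule. ACTG2 had 8 reads with DMSO and none with MBZ in MDA-MB-231, at least 2.21-fold lower against a floor of 3 counts (the counting interval reached up to -0.50 on the log2 scale), but 10 and 28 in SUM159. SRF differed by 0.74 on the log2 scale (SUM159 minus MDA-MB-231).

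The same difference was 1.98 for MYH11, -2.81 for SYNPO2, 2.87 for SMTN, 1.26 for ACTB, 1.41 for TPM3, 0.63 for FLNA, 1.22 for ACTN4 and 1.12 for CFL1. For LIMK1, a kinase that inactivates cofilin, it was 1.11, and for the formins DIAPH1 and DIAPH3, which build actin filaments, 0.935 and 2.49. KRT17, a basal keratin, had a difference of -4.68, with 3.83 in MDA-MB-231 and -0.86 in SUM159. In SUM159, ACTB, CFL1 and LIMK1 hardly changed, with log2 fold changes of 0.040, 0.084 and 0.086. ACTN4, FLNA and DIAPH1 had 0.20, 0.28 and 0.42 there, also under 1.5-fold. MYH11, SYNPO2, SMTN, TPM3, DIAPH3 and KRT17 passed 1.5-fold in both lines.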

How the results depend on the processing

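Under other scalings or a prior count of 2, 60 values of single members within a line stayed within their counting interval, 7 moved beyond it with the same sign, and 5 changed sign, all with total counts, which raise all genes alike: CALD1 in MDA-MB-231 (0.14), TPM2 in MDA-MB-231 (0.089, where the interval held 0) and SUM159 (0.033), and MRTFA in MDA-MB-231 (0.028) and SUM159 (0.016). Total counts also moved the members' median to -0.00047 in MDA-MB-231 and -0.39 in SUM159, and the members at least 1.5-fold lower in SUM159 to 3 and higher to 2. A fold of 2 left 3 lower in SUM159. A mean of at least 100 counts left 1 lower in MDA-MB-231, and 4 lower and 0 higher in SUM159, having fewer members to compare. Every member with at least 1 count gave 3 lower and 1 higher in MDA-MB-231, 2 higher in SUM159 and a SUM159 median of -0.49, having more. Members with a shared change numbered 1 with DESeq2 (MYL9) and 2 with every gene of at least 1 count (ACTA2 and MYL9), the cause of which was not tested. Without the cell line in the model, the shared value of ACTG2 was 0.57 in place of -0.27. The shared test pairs MBZ with DMSO by cell line, and with 1 library per group no pairing by replicate number could be added. Depth limits CNN1 and ACTG2 in both lines and ACTA2 in MDA-MB-231.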

Other observations

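Genes with an exact CArG box in their promoter window were compared with all genes that have a window, a set chosen by sequence and not by change. In MDA-MB-231, 24.4% of 176 such genes were at least 1.5-fold lower after MBZ and 17% at least 1.5-fold higher, against 15.3% and 16.2% of 11074 genes. In SUM159, 26.7% of 180 were lower and 21.1% higher, against 20.7% and 19.2% of 11322 genes. The medians were -0.094 and -0.053, against -0.037 and -0.044. The quartiles of the CArG genes were -0.57 and 0.29 in MDA-MB-231 and -0.62 and 0.42 in SUM159. These shares describe the libraries and were not tested.

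Of the other lists, the actin isoforms had an exact CArG box for 3 of the 3 genes with a window, ACTG1, ACTA1 and ACTC1. ACTG1, with log2 fold changes of -1.19 and -0.38, was the 1 of these with more than 15 counts in a library.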
